A study of Mus musculus with 16 samples.

Results

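The 49 genes described here carry a cell through mitosis, from the cyclins and kinases that start it to the proteins that separate the daughter cells. They were chosen by name and matched to the count table through their mouse Entrez IDs, and all 49 were found among its 19665 rows. Each was placed in 1 of 8 steps: mitotic entry (8 genes), chromosome condensation (7), kinetochore (8), spindle kinesins (5), spindle assembly (5), checkpoint and activation of the anaphase-promoting complex (6), chromosomal passenger complex (4), and central spindle and cytokinesis (6). All 49 had enough counts to be tested, among 13172 genes in all.

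The messenger RNA came from 2 cell lines grown from mammary tumours of MMTV-PyMT mice of the FVB/N strain, in which the MMTV promoter drives the polyoma middle T oncogene. Line 631 (WT) was Pygo2 +/+ and line 828 (AE) was homozygous for the Pygo2 A342E knock-in, so every line carried the PyMT transgene. Pygo2 is a Wnt pathway protein that works with beta-catenin in the nucleus and reads methylated histone H3 through its PHD finger. The series asks about that contact. Each line was given TGFb at 2 ng/ml for 4 days or Wnt3a at 100 ng/ml for 3 days in medium with serum, and each treatment had its own untreated cells of the same duration. The 8 groups held 2 libraries each, described as biological duplicates. How the duplicates were grown is not stated, so the p-values rest on a spread between libraries that may be technical. There was 1 line per genotype, so genotype and line cannot be told apart in any difference between WT and AE.

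In mitosis, cyclin B with its kinase Cdk1 starts the condensation of chromosomes and the breakdown of the nuclear envelope. Kinetochores then tie each chromatid to spindle fibres, and the spindle checkpoint holds back the anaphase-promoting complex, an E3 ubiquitin ligase, until every chromosome is attached. Most genes of these steps are transcribed late in the cell cycle. In resting cells the DREAM complex of p130, E2F4 and the MuvB core holds them off, and in G2 the MuvB core works with B-Myb (Mybl2) and FoxM1 to turn them on. MuvB binds a promoter element called CHR, and the factor NF-Y binds CCAAT boxes that often lie upstream of it. TGFb is known to arrest epithelial cells in G1, and Wnt3a is the ligand that stabilises beta-catenin.

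Libraries held 20530538 to 26191846 counts. Levels are given as CPM, counts relative to the library's TMM-scaled total. The 3-day replicates lay further apart than the 4-day ones: the SD over all genes of the log2 ratio between replicates was 0.919 in untreated WT and 0.783 in untreated AE at 3 days, against 0.388 and 0.275 at 4 days. The members' ratio of replicate 1 to replicate 2 followed the GC content of their transcripts in several groups. Spearman's rho over the 49 genes, a description from 2 libraries each, was between -0.94 and -0.65 in the 4 WT groups, 0.83 in 3-day untreated AE and between -0.20 and 0.50 in the other 3 AE groups. The labelled tissue is breast cancer cells, and 7 of 8 epithelial markers averaged at least 1 CPM in each group, with a summed level of 1904 to 3387 CPM. Krt19 averaged at most 0.488 CPM. The 5 of 8 immune markers found in the table summed to 2.59 to 7.68 CPM, endothelial markers (6) to 0.446 to 147 CPM and fibroblast markers (6) to 1.79 to 207 CPM. The high ends of these last lists were in AE libraries. There Erg and Pdgfra had the highest levels, while the endothelial markers Kdr, Cdh5 and Pecam1 averaged at most 2.10 CPM in any group. Over the 4 untreated libraries of a line, the fibroblast marker Col3a1 averaged 28.3 CPM in AE and was at 0 in WT, and Pdgfrb averaged 17.3 and 0.239 CPM. Exons of 9 members overlap a gene on the opposite strand: Ccna2 (Exosc9), Cdc20 (Elovl1), Kif20a (Cdc23), Kif4 (Pdzd11), Ncapg (Lcorl), Nusap1 (Oip5), Plk1 (Gm44985), Prc1 (Rccd1) and Ube2c (Tnnc2). The strand setting of the counting is not given in the sources used here, so some of their counts may belong to the partner.

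The upstream regions of these genes show what they have in common at the DNA level. RefSeq's promoter table (GRCm38.p6, the assembly also called mm10) held 44 windows for 40 of the 49 genes, each of 300 bases around a transcript start. The CHR letters TTTGAA, searched on both strands, were found in 72.7% of the members' windows and in 17.9% of all 32851 windows. The CCAAT letters were found in 77.3% against 37.4%, and both in 63.6% against 6.95%. Matches of the 2 motifs can share at most 1 base, and a match is a description, not a site. Below are the 90 bases upstream of the start for 6 genes that hold both motifs close to it, for Ccnb2 with its run of CCAAT boxes, and for Nuf2, whose window of 300 bases held neither; matches are in capitals. They lie at chr10:69352913-69353002 (Cdk1, minus strand), chr2:164769839-164769928 (Ube2c, plus), chr4:118437344-118437433 (Cdc20, minus), chr11:99024190-99024279 (Top2a, minus), chr19:37376292-37376381 (Kif11, plus), chr7:127042421-127042510 (Kif22, minus), chr9:70421555-70421644 (Ccnb2, minus) and chr1:169531465-169531554 (Nuf2, minus).
Cdk1: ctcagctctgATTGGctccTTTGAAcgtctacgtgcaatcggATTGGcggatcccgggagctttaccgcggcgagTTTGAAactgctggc
Ube2c: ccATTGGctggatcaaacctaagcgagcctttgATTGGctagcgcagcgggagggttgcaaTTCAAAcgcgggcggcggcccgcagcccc
Cdc20: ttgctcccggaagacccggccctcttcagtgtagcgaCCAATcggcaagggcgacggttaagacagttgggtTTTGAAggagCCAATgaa
Top2a: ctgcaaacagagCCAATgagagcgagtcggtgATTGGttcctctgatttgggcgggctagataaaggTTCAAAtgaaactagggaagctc
Kif11: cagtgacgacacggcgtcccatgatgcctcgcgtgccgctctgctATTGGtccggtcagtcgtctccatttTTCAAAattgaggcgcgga
Kif22: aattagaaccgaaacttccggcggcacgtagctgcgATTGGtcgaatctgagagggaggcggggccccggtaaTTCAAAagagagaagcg
Ccnb2: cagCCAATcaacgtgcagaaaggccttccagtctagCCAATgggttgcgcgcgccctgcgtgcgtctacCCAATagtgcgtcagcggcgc
Nuf2: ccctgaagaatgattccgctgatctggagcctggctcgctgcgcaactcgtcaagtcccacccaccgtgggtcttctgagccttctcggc
In Cdk1 the CHR match nearest the start began 15 bases before it, in Cdc20 18, in Kif11 19, in Top2a 23 and in Ube2c 29 bases before it. In Kif22 it began 17 bases before the start. For the TGFb change described next, the median log2 fold change in WT was -4.03 over the 30 members with a CHR match, -4.14 over the 10 without one, and -4.06 over the 9 with no window in the table.

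Together the 49 genes made up 0.983% ± 0.092 (SD, n = 2) of all counts in untreated WT cells at 4 days and 0.0553% ± 0.0095 under TGFb. In AE cells the same share was 0.614% ± 0.0092 untreated and 0.249% ± 0.0049 under TGFb. At 3 days it was 1.18% ± 0.16 in untreated WT, 0.618% ± 0.13 with Wnt3a, 0.635% ± 0.20 in untreated AE and 0.535% ± 0.11 with Wnt3a. The untreated WT cells thus held more of these transcripts than the untreated AE cells, and the 2 WT libraries under TGFb lay below every other library. Per kilobase of transcript, mean levels ran from 10.9 CPM (Spc24) to 326 CPM (Birc5) in untreated WT and from 4.91 CPM (Cenpk) to 223 CPM (Birc5) in untreated AE, so the gene with the lowest level differed between the lines. In RNA from whole cultures, fewer dividing cells and less RNA per dividing cell cannot be told apart.

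**Figure D1:**
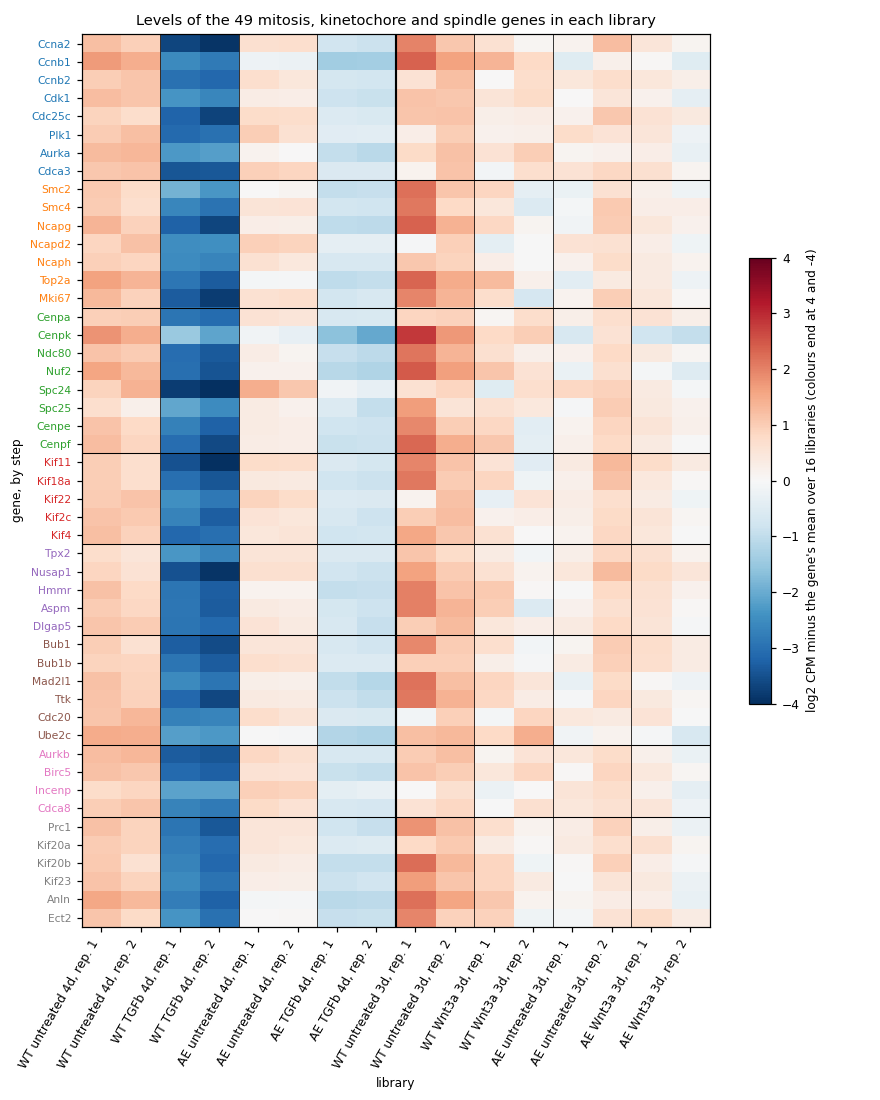
Level of each of the 49 genes (rows, grouped and coloured by step) in each of the 16 libraries (columns), as log2 CPM minus the gene's mean over the libraries. The 2 WT libraries under TGFb are the darkest blue in every step, and replicate 1 of the untreated 3-day WT cells is the darkest red in many rows, for instance Top2a at 2413 CPM against 1326 CPM in its replicate.

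TGFb lowered the level of all 49 genes in WT cells (49 of 49 passed at an adjusted p under 0.05, where 12.9% of all genes tested fell). The median log2 fold change was -4.04, a 16.5-fold drop, and members ran from -5.16 (Spc24) to -2.74 (Spc25), while the median of all genes tested was 0.06. In AE cells 33 of the 49 fell, against 4.32% of all genes, and the other 16 were also below 0. The AE median was -1.24 and the range -1.60 (Cenpk) to -0.93 (Ect2), with the median of all genes at 0.00. For each of the 49 genes, both treated libraries lay below both untreated ones in WT and in AE. The share of all genes with such a separation was not counted. The response itself differed between the lines: AE minus WT was above 0 for all 49, with a median of 2.82, and passed for 46, where 5.04% of all genes passed in that direction. Smc2, Cenpk and Spc25 did not pass that test. Fibroblast markers moved in the same comparisons. In AE 4 of the 6 rose with TGFb, Col3a1 from 13.3 to 40.2, Pdgfrb from 10.8 to 38.9, Dcn from 0.0182 to 2.00 and Dpt from 0.277 to 1.49 CPM. There Pdgfra was lower under TGFb, at 84.0 against 156 CPM, and did not pass. In WT Col3a1 (from 0 to 1.11 CPM), Pdgfrb (0.313 to 2.17) and Pdgfra (3.66 to 8.13) rose. The endothelial markers Erg (0.0618 to 3.02 CPM) and Cdh5 (0.0427 to 2.10) rose in WT too. Pecam1 went the other way, from 0.934 to 0.233 CPM, and did not pass. Of the epithelial markers, Epcam (486 to 292 CPM), Cldn7 (66.7 to 19.2) and Esrp1 (377 to 258) fell in WT. Krt8 (538 to 783 CPM), Krt18 (576 to 714), Cdh1 (530 to 612) and Cldn3 (49.5 to 68.4) had higher means there and did not pass. The summed epithelial level in WT went from between 2467 and 2779 to between 2521 and 2971 CPM. The summed fibroblast level went from between 3.67 and 4.28 to between 11.4 and 12.1 CPM in WT and from between 176 and 185 to between 161 and 173 CPM in AE. The part of other cells in the results was not tested.

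The AE calls rest on few libraries. Leaving out 1 AE library in turn left 1 library in a group, and fewer of the 49 and of all genes tested passed. The median log2 fold change over the 49 stayed between -1.28 and -1.19 each time. In AE 23 of the 24 members of highest transcript GC passed and 9 of the 24 of lowest GC, at medians of -1.25 and -1.20.

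**Figure D2:**
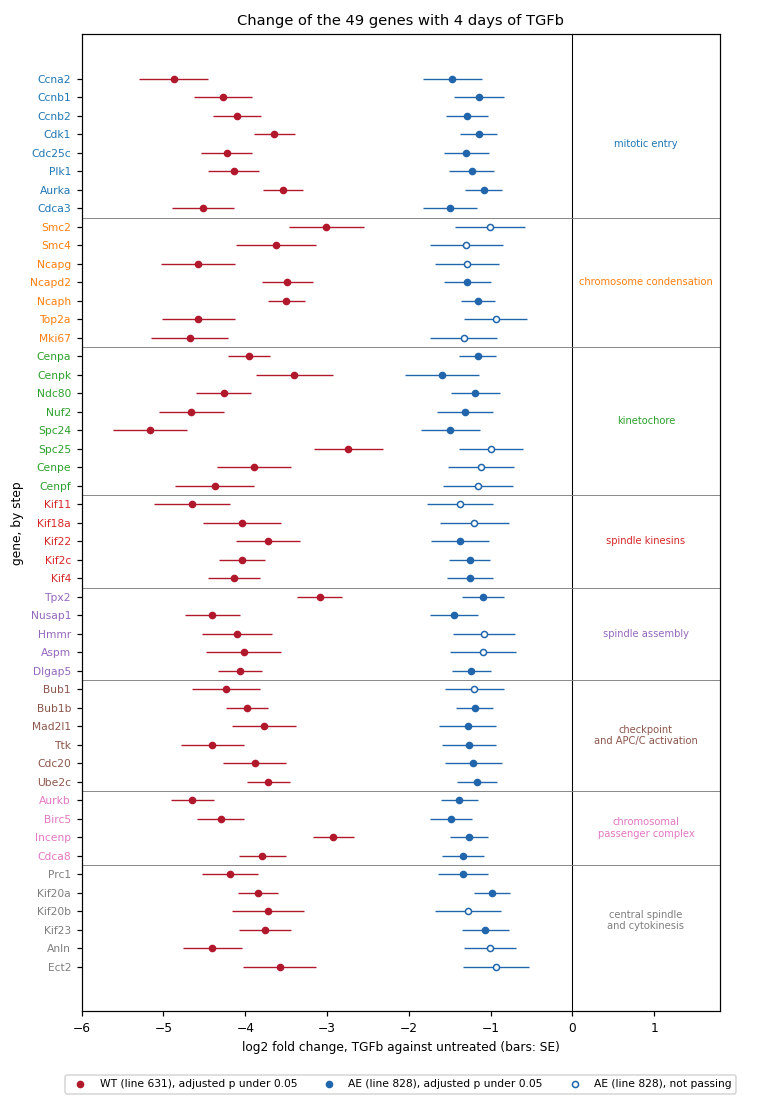
Log2 fold change with TGFb against untreated, with its SE, for each of the 49 genes in WT (red) and AE (blue), in the order of the steps. Filled points passed and open points did not; the WT points lie between -5.16 and -2.74 and the AE points between -1.60 and -0.93, so the lines do not overlap.

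Among the mitotic entry genes, cyclin A2 (Ccna2), which works from S phase to early mitosis, showed the largest drop in WT. Its level was 364 and 301 CPM untreated and 12.3 and 10.3 CPM under TGFb, a 29.3-fold fall (log2 fold change -4.87 ± 0.42 SE, adjusted p = 6.17e-06). In AE it went from 247 and 250 to 92.9 and 86.9 CPM (-1.47 ± 0.36, adjusted p = 0.0227). Both treated AE libraries were above the treated WT ones. The cyclin that starts mitosis, Ccnb1, fell from 164 and 136 to 8.5 and 7.0 CPM in WT and from 43.0 and 42.7 to 19.1 and 19.7 CPM in AE. Its partner kinase Cdk1 was at 347 and 316 CPM in untreated WT and 28.9 and 24 CPM under TGFb. Aurka, the kinase of the centrosomes, had the smallest drop of this step in both lines, -3.54 ± 0.24 in WT (adjusted p = 1.61e-06) and -1.08 ± 0.22 in AE (adjusted p = 0.00932). In AE the largest was that of Cdca3, a trigger of Wee1 degradation, at -1.50 ± 0.33 (adjusted p = 0.0132). Cdc25c, the phosphatase that activates Cdk1, the kinase Plk1 and cyclin B2 (Ccnb2) fell too, by 4.10 to 4.23 on the log2 scale in WT. As means ± SD of the 2 libraries, untreated and treated, Cdc25c went from 41.6 ± 3.6 to 2.22 ± 0.54 CPM in WT and from 39.7 ± 0.61 to 16.1 ± 0.56 CPM in AE. Plk1 went from 78.0 ± 6.9 to 4.42 ± 0.28 CPM in WT and from 63.3 ± 11 to 27.0 ± 0.3 CPM in AE. Ccnb2 was at 109 ± 7.1 CPM in untreated WT, 6.37 ± 0.51 CPM in treated WT, 78.5 ± 7.5 CPM in untreated AE and 32.1 ± 0.88 CPM in treated AE. In each of these 3 genes the treated AE mean was above the treated WT mean. For Aurka the WT means were 134 ± 3.5 and 11.6 ± 0.58 CPM and the AE means 57.8 ± 4.2 and 27.3 ± 1.5 CPM. For Cdca3 the WT means were 68.1 ± 2.2 and 2.98 ± 0.041 CPM and the AE means 59.9 ± 2.7 and 21.2 ± 0.087 CPM.

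Chromosome condensation needs the condensin motors Smc2 and Smc4, their non-SMC subunits Ncapg, Ncapd2 and Ncaph, and topoisomerase II alpha (Top2a), which untangles DNA. Top2a was at 1439 and 1212 CPM in untreated WT and 63.6 and 47.7 CPM under TGFb. In AE its level was 455 and 464 CPM untreated and 234 and 246 CPM treated, a change of -0.94 ± 0.39 that did not pass (adjusted p = 0.169). The groups nevertheless did not overlap. Mki67, the proliferation marker that coats mitotic chromosomes, had the largest WT change of the step (-4.68 ± 0.47, adjusted p = 1.71e-05) and Smc2 the smallest (-3.01 ± 0.46, adjusted p = 0.000386). Smc2 stood at 348 and 281 CPM untreated and 44.9 and 33.2 CPM treated. In AE the 7 genes ran from -1.33 to -0.94, and 2 of them passed, Ncapd2 (-1.28 ± 0.28, adjusted p = 0.0134) and Ncaph (-1.16 ± 0.21, adjusted p = 0.00413). Mki67 went from 970 and 753 to 39.1 and 28.2 CPM in WT and from 599 and 629 to 239 and 251 CPM in AE, with no overlap. Smc4 went from 373 ± 61 to 30.3 ± 5.2 CPM in WT and from 299 ± 4.8 to 122 ± 3.5 CPM in AE (mean ± SD, n = 2). For Ncapg the WT means were 129 ± 28 and 5.41 ± 1.1 CPM and the AE means 69.6 ± 1.7 and 28.4 ± 0.48 CPM. Ncapd2 and Ncaph are non-SMC subunits of condensin. Ncapd2 was at 139 ± 20 CPM in untreated WT, 12.4 ± 0.33 CPM in treated WT, 129 ± 5.3 CPM in untreated AE and 53.1 ± 0.46 CPM in treated AE. In WT Ncaph fell from 117 ± 4.5 to 10.4 ± 0.63 CPM, and in AE it was at 89.2 ± 7.3 and 40.0 ± 0.54 CPM.

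The kinetochore holds both ends of the WT range within a single complex. Ndc80, Nuf2, Spc24 and Spc25 together form the rod that grips microtubules. Spc24 went from 14.0 and 20.1 to 0.541 and 0.404 CPM (-5.16 ± 0.45, adjusted p = 6.65e-06) and Spc25 from 46.3 and 33.6 to 6.88 and 5.07 CPM (-2.74 ± 0.42, adjusted p = 0.00044). The ratio of the CPM of Spc24 to that of Spc25, examined after their values were seen and not corrected for length, was 0.303 and 0.597 in untreated WT and 0.0786 and 0.0796 under TGFb. In AE it was 0.558 and 0.488 untreated and 0.350 and 0.399 treated, so the treated libraries were below the 4-day untreated ones in both lines. In the 3-day untreated libraries it was 0.124 and 0.328 in WT and 0.477 and 0.241 in AE, so untreated libraries varied in this ratio as well, and one untreated AE library lay below both treated AE ones. The treated WT libraries had the lowest values of the 16. Few counts stand behind the treated level of Spc24, since those WT libraries held 11 and 9 counts of it. Ndc80 and Nuf2 fell by 4.26 and 4.66 on the log2 scale in WT and by 1.19 and 1.31 in AE. The centromeric histone Cenpa had the smallest passing change of the step in AE (-1.16 ± 0.23, adjusted p = 0.00724), and Cenpk, of the inner centromere network, had the largest (-1.60 ± 0.45, adjusted p = 0.0422) from a low level of 5.64 and 4.94 to 1.99 and 1.49 CPM. Spc25, the motor Cenpe and the corona protein Cenpf did not pass in AE (-0.99, -1.12 and -1.15). The rest of the step is given as means ± SD of 2 libraries, untreated and treated. Cenpa went from 94.3 ± 1.5 to 6.07 ± 0.52 CPM in WT and from 70.3 ± 3.1 to 31.5 ± 0.83 CPM in AE. For Ndc80 the WT means were 61.6 ± 4.3 and 3.20 ± 0.47 CPM and the AE means 33.7 ± 2.8 and 14.8 ± 0.87 CPM. For Nuf2 the WT means were 148 ± 19 and 5.88 ± 1.3 CPM and the AE means 61.3 ± 0.066 and 24.7 ± 0.94 CPM. Cenpe carries chromosomes to the spindle's middle, and Cenpf is a large protein of the outer kinetochore. Cenpe was at 224 ± 37 CPM in untreated WT, 15.1 ± 3.9 CPM in treated WT, 142 ± 4 CPM in untreated AE and 65.5 ± 1.2 CPM in treated AE. Cenpf went from 253 ± 49 to 12.2 ± 3.3 CPM in WT and from 147 ± 1.8 to 65.9 ± 0.59 CPM in AE.

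Of the spindle kinesins, Kif11 pushes the spindle poles apart. It had the largest WT change of the 5, from 184 and 146 to 8.30 and 4.85 CPM (-4.65 ± 0.47, adjusted p = 1.71e-05). In AE it went from 153 and 151 to 61.6 and 56.3 CPM, -1.37 ± 0.40, which narrowly missed the threshold (adjusted p = 0.0511). The untreated ranges of the lines overlapped, and the treated ones did not. Kif22, a chromosome-arm motor, had the smallest change in WT (-3.72 ± 0.39, adjusted p = 2.44e-05) and the largest passing one in AE (-1.38 ± 0.35, adjusted p = 0.0275). Kif4, which helps shape condensed chromosomes, had the smallest passing one in AE (-1.25 ± 0.28, adjusted p = 0.0137). The depolymerase Kif2c passed in both lines, and Kif18a, which dampens chromosome movements, passed in WT only (-4.04 in WT, -1.20 in AE). For Kif18a the WT means were 40.4 ± 6.3 and 2.45 ± 0.49 CPM and the AE means 29.2 ± 0.68 and 12.7 ± 0.39 CPM (mean ± SD, n = 2, untreated and treated). Kif22 went from 82.4 ± 4.9 to 6.25 ± 1.2 CPM in WT and from 68.8 ± 5.4 to 26.5 ± 0.51 CPM in AE. Kif2c was at 103 ± 5.5 CPM in untreated WT, 6.25 ± 1.9 CPM in treated WT, 68.7 ± 3.2 CPM in untreated AE and 28.8 ± 2.6 CPM in treated AE. In these 3 genes the untreated and treated libraries did not overlap in either line. In WT Kif4 fell from 131 ± 18 to 7.47 ± 0.48 CPM, and in AE it was at 88.1 ± 2.9 and 36.9 ± 1 CPM.

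The spindle assembly genes code for microtubule-binding proteins. Tpx2, the activator of the Aurka kinase, had a small change for this set in WT, from 213 and 182 to 25.8 and 20.8 CPM (-3.09 ± 0.28, adjusted p = 7.71e-06), and in AE from 185 and 187 to 87.6 and 86.1 CPM (-1.10 ± 0.26, adjusted p = 0.0175). Nusap1, which bundles fibres near chromosomes, changed the most in both lines, by -4.40 ± 0.34 in WT (adjusted p = 3.06e-06) and -1.44 ± 0.29 in AE (adjusted p = 0.00875). Dlgap5, which stabilises fibres at kinetochores, fell in both lines as well. The hyaluronan-mediated motility receptor Hmmr and the pole protein Aspm fell by 4.10 and 4.02 on the log2 scale in WT and did not pass in AE, where their changes were -1.08 and -1.09. Nusap1 went from 93.5 ± 12 to 4.42 ± 0.91 CPM in WT and from 87.5 ± 0.11 to 32.2 ± 1.2 CPM in AE (mean ± SD, n = 2). For Hmmr the WT means were 202 ± 40 and 11.8 ± 2.3 CPM and the AE means 112 ± 0.26 and 52.9 ± 0.44 CPM. Both treated AE means lay above the treated WT means. Aspm was at 148 ± 15 CPM in untreated WT, 9.11 ± 1.9 CPM in treated WT, 97.5 ± 2 CPM in untreated AE and 45.7 ± 3.4 CPM in treated AE. In WT Dlgap5 fell from 76.3 ± 3.8 to 4.56 ± 0.43 CPM, and in AE it was at 50.5 ± 5.3 and 21.4 ± 2.9 CPM.

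The checkpoint kinases Bub1 and Ttk, the checkpoint proteins Bub1b and Mad2l1, and the factors that drive the anaphase-promoting complex, Cdc20 and the ubiquitin-conjugating enzyme Ube2c, all fell in WT, with log2 fold changes of -4.40 to -3.72. Ttk had the largest change, from 67.2 and 56.7 to 3.44 and 2.42 CPM (-4.40 ± 0.38, adjusted p = 6.24e-06), and Ube2c the smallest, from 222 and 218 to 17.3 and 16.2 CPM (-3.72 ± 0.26, adjusted p = 1.87e-06). Inhibitors and activators of the complex therefore dropped side by side. In AE 5 of the 6 passed, from Mad2l1 (-1.28 ± 0.35, adjusted p = 0.0368) to Ube2c (-1.17 ± 0.24, adjusted p = 0.00932), and Bub1 did not (-1.20, adjusted p = 0.0568). For Bub1 the WT means were 101 ± 19 and 5.37 ± 0.74 CPM and the AE means 80.8 ± 0.14 and 35.3 ± 1.9 CPM (mean ± SD, n = 2). Bub1b went from 114 ± 2.8 to 7.27 ± 1.5 CPM in WT and from 97.5 ± 2 to 42.6 ± 0.2 CPM in AE. Mad2l1 was at 121 ± 17 CPM in untreated WT, 8.84 ± 1.5 CPM in treated WT, 68.5 ± 1.2 CPM in untreated AE and 28.2 ± 2.2 CPM in treated AE. Cdc20 recruits the substrates of the complex. In WT Cdc20 fell from 121 ± 12 to 8.20 ± 0.34 CPM, and in AE it was at 79.4 ± 7.3 and 34.3 ± 0.54 CPM. Ube2c was at 77.7 and 76.3 CPM in untreated AE and 35.1 and 33.7 CPM in treated AE.

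In the chromosomal passenger complex, the kinase Aurkb is held by the scaffold Incenp with survivin (Birc5) and borealin (Cdca8). Aurkb went from 68.2 and 73.3 to 2.90 and 2.74 CPM in WT (-4.65 ± 0.26, adjusted p = 8.13e-07), the smallest adjusted p of the 49. Incenp went from 90.8 and 99.5 to 12.5 and 12.5 CPM, a fall of 2.92 ± 0.25 on the log2 scale (adjusted p = 5.92e-06), the second smallest after Spc25. In AE all 4 members passed, at -1.49 ± 0.26 for Birc5 (adjusted p = 0.0036) to -1.26 ± 0.24 for Incenp (adjusted p = 0.00537). The change of the scaffold was the closest to 0 of the 4 in both lines. Birc5 went from 314 ± 15 to 15.9 ± 1.5 CPM in WT and from 214 ± 5.3 to 76.4 ± 3.1 CPM in AE (mean ± SD, n = 2). For Cdca8 the WT means were 83.9 ± 5.3 and 6.06 ± 0.39 CPM and the AE means 65.5 ± 5.8 and 25.8 ± 0.61 CPM. Incenp was at 95.1 ± 6.2 CPM in untreated WT, 12.5 ± 0.0084 CPM in treated WT, 104 ± 4.2 CPM in untreated AE and 43.4 ± 1.7 CPM in treated AE.

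Anln and Ect2 build the contractile ring at the cell's middle, and Prc1, Kif20a, Kif20b and Kif23 organise the central spindle. Anln was at 698 and 579 CPM in untreated WT and 35.2 and 25.2 CPM under TGFb (-4.40 ± 0.36, adjusted p = 5.12e-06). In AE its level was 226 and 232 CPM untreated and 112 and 115 CPM treated (-1.01 ± 0.32, adjusted p = 0.0673). Ect2, the exchange factor for RhoA, had the smallest change in WT (-3.58 ± 0.44, adjusted p = 8.45e-05) and did not pass in AE (-0.93 ± 0.40, adjusted p = 0.196). The passing members in AE were Prc1 (-1.33 ± 0.30, adjusted p = 0.0155), Kif23, and Kif20a with the smallest change (-0.98 ± 0.22, adjusted p = 0.0128). For Prc1 the WT means were 270 ± 36 and 14.9 ± 3.5 CPM and the AE means 184 ± 2.8 and 72.8 ± 4.2 CPM (mean ± SD, n = 2), and this protein cross-links the fibres of the central spindle. Kif20a went from 224 ± 12 to 15.6 ± 2.2 CPM in WT and from 159 ± 5.6 to 80.6 ± 1.3 CPM in AE. In WT Kif20b fell from 134 ± 29 to 10.2 ± 2.4 CPM, and in AE it was at 94.3 ± 3.3 and 38.9 ± 0.17 CPM. Kif23 is the motor subunit of centralspindlin, the complex that brings Ect2 to the division plane. For Kif23 the WT means were 184 ± 22 and 13.6 ± 2.5 CPM and the AE means 107 ± 0.47 and 51.3 ± 2.5 CPM. Ect2 was at 244 ± 39 CPM in untreated WT, 20.4 ± 6.2 CPM in treated WT, 130 ± 0.77 CPM in untreated AE and 67.9 ± 0.63 CPM in treated AE.

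Set side by side, the 8 steps changed by similar amounts. Their median log2 fold changes in WT ran from -3.62 (chromosome condensation) to -4.18 (mitotic entry), with -4.11 for kinetochore genes, -4.06 for spindle assembly, -4.04 for kinesins, -4.04 for the passenger complex, -3.93 for the checkpoint and -3.80 for cytokinesis. Within most steps the members differed by more than the step medians did: kinetochore genes spanned -5.16 to -2.74. In AE the step medians ran from -1.36 (passenger complex) to -1.04 (cytokinesis). Members passing in AE were 8 of 8 for entry, 4 of 4 for the passenger complex, 5 of 6 for the checkpoint, 5 of 8 for the kinetochore, 3 of 5 for kinesins, 3 of 5 for spindle assembly, 3 of 6 for cytokinesis and 2 of 7 for condensation. Steps were compared by these values with no test between them. A member's SE in AE had a median of 0.39 for condensation and 0.25 for the passenger complex. Across the 49 genes the WT and AE changes, which share no library, had a Spearman's rho of 0.40, a description over genes of common depth and libraries.

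Other genes of the mitotic machinery, from lists written for this comparison, differed by list under TGFb. Among 22 regulators of G2 and M phase transcription, 11 fell and 1 rose in WT, and 4 fell in AE. The activators Foxm1 and Mybl2 fell in both lines: Foxm1 from 115 and 123 to 9.53 and 11.9 CPM in WT (-3.47 ± 0.29, adjusted p = 5.29e-06) and from 82.7 and 79.5 to 32.8 and 34.2 CPM in AE (-1.27 ± 0.27, adjusted p = 0.00986). Mybl2 changed by -4.14 ± 0.40 in WT (adjusted p = 1.29e-05) and -1.60 ± 0.35 in AE (adjusted p = 0.0132). The atypical repressor E2f8 fell by 5.07 ± 0.35 in WT (adjusted p = 1.56e-06) and by 1.64 ± 0.29 in AE (adjusted p = 0.00426). The gene that rose in WT was Rb1, the retinoblastoma repressor, by 1.39. Of 16 genes of the anaphase-promoting complex, its coactivator Fzr1 and its E2 enzyme Ube2s included, 3 fell in WT, with a median of -0.09, and 1 in AE, near the 12.9% and 4.32% of all genes. Those in WT were Anapc5, Anapc15 and Ube2s (-1.05, -1.12 and -1.46), and in AE Anapc5 (-0.65).

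Kinetochore genes outside the 49 followed them, with 24 of 28 lower in WT (median -2.86) and 13 of 28 in AE (median -1.12). Cenpm (-5.36 ± 0.79, adjusted p = 0.0003) and Ska1 (-4.79 ± 0.38, adjusted p = 3.89e-06) changed the most in WT, and the same 2 did in AE (-2.30 and -1.84). Of 38 other mitosis genes 35 fell in WT and 16 in AE, with medians of -3.47 and -1.13. Cdc25b, a phosphatase that activates Cdk1, changed by -4.64 and -1.50. Of 12 cohesin genes, which hold sister chromatids together, 4 fell in WT and 1 in AE: the acetyltransferase Esco2 (-4.87 and -1.66) in both lines, and Smc1a, Smc3 and Rad21 in WT, by 1.18 to 1.51 on the log2 scale. In AE these 3 were at -0.59, -0.48 and -0.47 and did not pass, and the difference between the lines did not pass for them either (adjusted p = 0.0859, 0.481 and 0.202). S phase genes fell in 30 of 30 cases in WT (median -2.91) and 21 of 30 in AE (median -1.33). Their WT median lay closer to 0 than that of the 49 mitosis genes, a comparison made without a test. Among 6 G1 cyclins and kinases, Ccnd2 rose in both lines, from 2.02 and 2.21 to 88.6 and 80.8 CPM in WT and from 5.86 and 9.02 to 33.7 and 36.8 CPM in AE. Cdk2 fell in WT (-1.75) and Ccnd1 in AE (-1.07).

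Without treatment the AE line had lower levels of 30 of the 49 genes, over 4 libraries of each line, and none was higher (26.4% of all genes tested were lower in AE). The median log2 fold change, AE against WT, was -0.66. The largest differences were in Cenpk, at 16.9 to 43.7 CPM in WT and 3.96 to 9.36 CPM in AE (-2.07 ± 0.31, adjusted p = 0.00012), and in Ccnb1, at 164, 136, 255 and 153 CPM in WT and 43.0, 42.7, 35.7 and 58.2 CPM in AE (-1.96 ± 0.22, adjusted p = 1.24e-05). For these 2 genes every AE library lay below every WT library. The same held for Top2a (-1.74 ± 0.28, adjusted p = 0.000211), Anln (-1.60 ± 0.23, adjusted p = 8.76e-05) and Ube2c (-1.38 ± 0.17, adjusted p = 2.56e-05), and for 24 of the 49 genes in all. How common such a separation of the lines was among all genes was not counted. At the other end, Spc24 (0.12), Incenp (0.19), Ncapd2 (-0.02), Cdca3 (-0.10) and Plk1 (-0.16) were at nearly the same mean level in both lines and did not pass.

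Cyclins B1 and B2, which both pair with Cdk1, parted company between the lines. Ccnb2 was at 104, 114, 78.6 and 121 CPM in untreated WT and 83.8, 73.1, 72.5 and 85.2 CPM in untreated AE (-0.41 ± 0.18, adjusted p = 0.0721). The ratio of the CPM of Ccnb1 to that of Ccnb2, looked at after these values were seen and not corrected for length, was at least 1.01 in each of the 8 WT libraries, treated or not, and at most 0.713 in each of the 8 AE libraries. The lower ratio in AE therefore held in every condition, also under TGFb, where WT had 1.26 and 1.16 and AE 0.584 and 0.626.

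By step, the members lower in untreated AE were 6 of 6 for cytokinesis, 6 of 8 for the kinetochore, 5 of 7 for condensation, 3 of 5 for spindle assembly, 3 of 6 for the checkpoint, 2 of 4 for the passenger complex, 2 of 5 for kinesins and 3 of 8 for entry. The smallest passing differences in their steps were those of Cenpa (-0.42 ± 0.16, adjusted p = 0.0404), Kif20a (-0.44 ± 0.15, adjusted p = 0.0259) and Ncaph (-0.45 ± 0.14, adjusted p = 0.0197). Cdk1 (-0.86 ± 0.16, adjusted p = 0.000653), Hmmr (-1.03 ± 0.27, adjusted p = 0.00627) and Ttk (-1.01 ± 0.23, adjusted p = 0.00275) were lower in AE too. With the 4-day libraries alone 9 of the 49 passed (median -0.55), near the 15.8% of all genes that were lower there. With the 3-day libraries alone 21 passed (median -0.83), where 20.1% of all genes were lower. The difference followed transcript GC across the 49 genes (Spearman's rho 0.62), with a median of -1.02 in the 24 genes of lowest GC and -0.41 in the 24 of highest. With a correction for transcript GC and length 41 of the 49 passed, at a median of -0.71, where 5794 of the 13172 genes tested were lower. Beyond that fit, the part of GC in the result was not tested.

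Under TGFb the order of the lines was the opposite. AE cells had higher levels of 47 of the 49 genes than WT cells, where 17.4% of all genes tested were higher, with a median log2 fold change of 2.20. Spc24, which did not differ at the threshold between the untreated lines, was at 0.541 and 0.404 CPM in WT and 6.95 and 6.06 CPM in AE (3.77 ± 0.44, adjusted p = 4.49e-05). Kif11 (3.17 ± 0.44, adjusted p = 0.000166) and Ccna2 (2.99 ± 0.39, adjusted p = 0.0001) came next. For 48 of the 49 genes both AE libraries lay above both WT libraries, a separation not counted over all genes. The exception was Cenpk, at 2.21 and 1.44 CPM in WT and 1.99 and 1.49 CPM in AE (-0.06 ± 0.46, adjusted p = 0.95). Smc2 was the other gene that did not pass, at 1.16 ± 0.43 (adjusted p = 0.0617). Among passing genes, Ube2c (1.04 ± 0.24, adjusted p = 0.00591), Aurka (1.24 ± 0.23, adjusted p = 0.00125) and Ccnb1 (1.32) differed the least. Those 3 were also among the genes that AE held at lower levels before treatment.

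**Figure D3:**
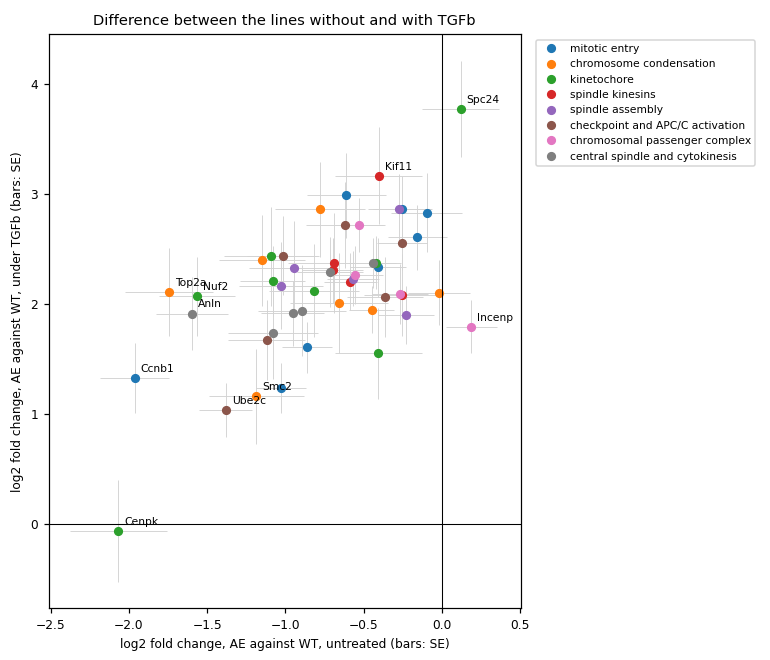
Log2 fold change of AE against WT in untreated cells (horizontal) and under TGFb (vertical), with SEs, for the 49 genes coloured by step. All but Spc24 and Incenp lie left of 0 and all but Cenpk lie above 0; Cenpk is at -2.07 and -0.06, Spc24 at 0.12 and 3.77.

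Wnt3a lowered 3 of the 49 genes in WT cells at the threshold, where 2.02% of all genes tested fell. Those were the condensin subunit Ncaph (-0.85 ± 0.20, adjusted p = 0.0367), Ndc80 (-1.36 ± 0.29, adjusted p = 0.0239) and Anln (-1.25 ± 0.32, adjusted p = 0.0499). Ncaph was at 131 and 115 CPM untreated and 74.1 and 62.2 CPM with Wnt3a, and Ndc80 at 129 and 74.9 CPM against 45.6 and 33.7 CPM. All 49 log2 fold changes were below 0, with a median of -0.93, and 35 had an unadjusted p under 0.05, as 10.5% of all genes had downward. For 39 of the 49 both treated libraries lay below both untreated ones, as they did for 15% of all genes tested. The untreated replicates were far apart, for example Smc4 at 883 and 359 CPM against 284 and 142 CPM with Wnt3a (-1.54 ± 0.45, adjusted p = 0.076). The untreated and treated ranges of Smc4 did not overlap.

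How many genes passed in WT depended on the libraries and the fit. Leaving out 1 library in turn put the median log2 fold change between -1.22 and -0.75. With only the groups compared 0 of the 49 passed, so Ncaph, Ndc80 and Anln did not, and 0 of 11647 genes tested fell. DESeq2 called 31 of the 49, where 700 of the 13172 genes tested fell. A correction for transcript GC and length raised the count to 41, at a median of -0.77, where 1037 of all genes fell. Without that correction the change followed transcript GC closely (Spearman's rho 0.81 over 49 genes), with a median of -1.23 in the 24 genes of lowest GC and -0.54 in the 24 of highest. Beyond the corrected fit, the part of GC in the result was not tested. By step, condensation genes had a median of -1.38 and kinetochore genes -1.21, against -0.49 for entry and -0.45 for the passenger complex. The median GC content of these steps was 43.4%, 43.1%, 48.6% and 52.7%. Among the members with the highest CPM of a step in which none passed, Ccna2 was at -1.23 ± 0.36 (adjusted p = 0.0793), Kif11 at -1.47 ± 0.40 (adjusted p = 0.0629), Tpx2 at -0.81 ± 0.25 (adjusted p = 0.0974), Birc5 at -0.41 ± 0.25 (adjusted p = 0.343) and Ube2c at -0.09 ± 0.24 (adjusted p = 0.833).

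**Figure D4:**
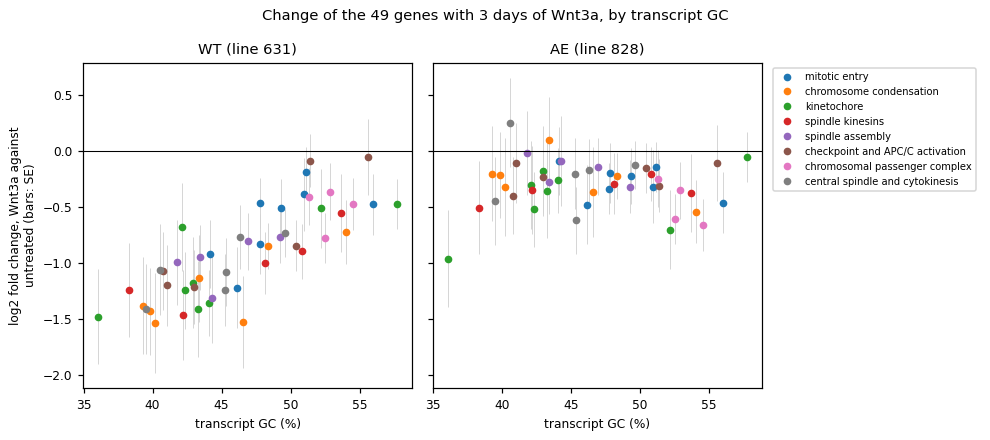
Log2 fold change with Wnt3a against untreated, with its SE, against the GC content of the transcript for the 49 genes, in WT (left) and AE (right), coloured by step. In WT the values climb with GC, from a median of -1.23 in the 24 genes of lowest GC to -0.54 in the 24 of highest, and in AE they stay near a median of -0.28.

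In AE cells edgeR called none of the 49 with Wnt3a, where 4.74% of all genes tested fell, and DESeq2 called 0. An unadjusted p under 0.05 was reached by 3 genes, Cenpk, Aurkb and Incenp, all downward, and by 10.6% of all genes downward. In AE 47 log2 fold changes were below 0, with a median of -0.28. Both treated libraries lay below both untreated ones for 7 of the 49, against 22.5% of all genes tested. Ccna2 was at 175 and 369 CPM untreated and 220 and 168 CPM with Wnt3a, so the groups overlapped. The difference between the lines in the Wnt3a response passed for 0 of 49 (1.18% of all genes passed upward), at a median of 0.67. An unadjusted p under 0.05 was reached by 5 genes, all upward, and by 7.75% of all genes upward. DESeq2 also called 0 there. Fibroblast markers moved with Wnt3a too. Pdgfra fell in WT (6.71 to 1.90 CPM) and in AE (130 to 43.7 CPM). Dcn rose in AE, from 0.0206 to 5.92 ± 6.5 CPM (SD, n = 2). Col3a1, Pdgfrb and Dpt did not pass in either line. The summed fibroblast level in AE went from between 189 and 207 to between 106 and 113 CPM. Here too the part of other cells was not tested.

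With Wnt3a 6 of the 49 were lower in AE than in WT, near the 12.1% of all genes tested that were lower, and the median was -0.10. A correction for transcript GC and length gave 17, where 33% of all genes were lower. The 6 were Cenpk (-1.75 ± 0.44, adjusted p = 0.00967), Ube2c (-1.47 ± 0.24, adjusted p = 0.000646), Ccnb1 (-1.28 ± 0.31, adjusted p = 0.0076), Nuf2 (-1.13 ± 0.34, adjusted p = 0.0265), Aurka (-0.80 ± 0.22, adjusted p = 0.0175) and Cdk1 (-0.71 ± 0.23, adjusted p = 0.0341). Each of them also passed as lower in the untreated AE cells. Without Wnt3a replicate 2 of AE 1 of the 49 passed. Foxm1 was at 57.4 and 59.9 CPM in WT and 62.4 and 34.3 CPM in AE with Wnt3a, and did not pass in either line's Wnt3a response (-0.63 in WT, -0.56 in AE).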

How the data were processed

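Polyadenylated RNA of 16 libraries was sequenced, and per the labels' protocols the libraries were made with a stranded mRNA kit. The submitters' processing notes name STAR and mm10. How reads were counted, with which annotation and strand setting, is not given in the sources used here. A single file was deposited by the authors, a table of whole-number counts per Entrez gene, although its name speaks of CPM. Symbols and coordinates were taken from the GRCm38.p6 gene table of RefSeq, with names for 19613 of 19665 IDs and none for 52.

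Genes that reached a CPM of 1 in 2 or more libraries were tested with edgeR 4.0.16 (R 4.3.3), by its quasi-likelihood test after TMM scaling, in 1 model with a mean for each of the 8 groups over all 16 libraries. That left 8 residual degrees of freedom, to which the prior added 4.05, and the common biological coefficient of variation was 0.26. P-values were Benjamini-Hochberg adjusted over all 13172 genes tested, and a gene passed under 0.05. Each SE was derived as the log2 fold change, without its sign, over the root of the F statistic. Replicates differed beyond sampling noise in every group (chi-square per degree of freedom 4.90 to 204), so all libraries were kept. GC content and length came from GENCODE M21 transcripts and covered 96.4% of the genes tested and all 49 members. The fitting procedure was tested on simulated counts. Python 3.11.15 and pandas 2.3.3 made the summaries.

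The members and lists were chosen with earlier results of these data known. By rule, each step's passing members with the largest and the smallest change have full statistics, or its member with the highest CPM where none passed, with Foxm1, Mybl2 and up to 2 passing genes per other list; some of these are left out for length, a choice made after their values were seen. Alternatives were median-ratio or total-count scaling, other filters, DESeq2 1.42.0, limma-trend (limma 3.58.1), only the groups compared, replicate blocks, a GC and length correction, the untreated times apart and each library left out in turn.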

Additional observations from a re-analysis of the deposited data

Results flagged for a closer look

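The change with TGFb differed between the lines by a test of the difference itself (edgeR, AE minus WT) for 46 of the 49 genes. The values, on the log2 scale, are those of the members named by rule. For mitotic entry they were 3.41 for Ccna2 and 2.45 for Aurka, for condensation 3.64 for Top2a and 2.20 for Ncapd2, and for the kinetochore 3.67 for Spc24 and 2.78 for Cenpe. For the kinesins they were 3.28 for Kif11 and 2.34 for Kif22, for spindle assembly 3.02 for Hmmr and 1.99 for Tpx2, and for the checkpoint 3.14 for Ttk and 2.49 for Mad2l1. For the passenger complex they were 3.26 for Aurkb and 1.66 for Incenp, and for cytokinesis 3.39 for Anln and 2.45 for Kif20b. Each of these 16 genes fell further from its untreated level in WT than in AE.

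The same test passed for the transcription regulators Foxm1 (2.20), Mybl2 (2.54), E2f7 (2.80) and E2f8 (3.43), and for the kinetochore genes Ska1 (2.95) and Oip5 (3.07). It passed for Cep55 (3.43) and Depdc1a (3.55) among other mitosis genes, Esco2 (3.21) among cohesin genes, and Mcm10 (3.42) and Ccne2 (3.57) among S phase genes. Of the G1 genes, Cdk2 differed by 1.13 and Ccnd2 by -3.08, the latter having risen further in WT. With 2 libraries in a group, no group was large enough to be searched for a library that stands apart.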

How the results depend on the processing

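All 49 genes passed as lower with TGFb in WT under each of the 16 alternatives, and the TGFb difference passed for 40 to 45 genes with 1 library left out. The TGFb count in AE (33) ranged from 1 to 11 with 1 library left out and stayed within 1.5 times of 33 under each other alternative. The Wnt3a count in WT (3) was the least stable: 9 with no filter, 31 with DESeq2, 0 with only the groups compared, 35 with the replicate block within each line, 41 with the GC and length correction, 39 with both, and 0 to 29 with 1 library left out. The Wnt3a count in AE (0) was 1 with the replicate block within each line, 7 with the GC and length correction and 6 with both. Calls over all 13172 genes rose under these settings too. In AE 1013, 1407 and 1384 genes fell, in that order, against 625 in the main fit. In WT 1124, 1037 and 1006 fell, against 266. There 293 of 19088 genes fell with no filter, 700 with DESeq2 and 0 of 11647 with only the groups compared. For the Wnt3a difference (0) the replicate block within each line gave 2, and leaving out 1 library 0 to 8. For AE against WT under Wnt3a (6) the count was 3 with only the groups compared, 10 with the replicate block within each line, 17 with the GC and length correction, 17 with both, and 1 to 5 with 1 library left out. In untreated cells (30) the count was 9 from the 4-day libraries alone and 21 to 38 with 1 library left out. The cause of these shifts was not tested, beyond the fewer libraries that some alternatives use.

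Same-numbered libraries share only a number, since the labels tie no number to a culture or day. Their deviations from the group mean correlated at 0.20 to 0.72 between treated and untreated cells of a line at the same time, and at -0.52 to -0.28 between the untreated lines. With numbers crossed between the lines, an alternative chosen after seeing the data, the block gave 33 calls for Wnt3a in WT and 1 in AE. Over all genes tested 794 fell in WT and 851 in AE with that block, against 266 and 625 in the main fit. The replicate block common to both lines changed no count by over 1.5 times.

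For AE against WT under TGFb, Cenpk (-0.06) was the 1 member below 0. With the GC and length correction, without WT TGFb replicate 1 or without AE TGFb replicate 2, all 49 were above 0. In untreated cells 2 members were above 0. There were 7 with the replicate block within each line and 6 without 3-day untreated WT replicate 2. Directions that turned with Wnt3a were those of small changes. In WT, Ube2c (-0.09) was 0.04 with total-count scaling and -0.46 to 0.20 with 1 library left out, and Mybl2 (-0.42) -0.78 to 0.06. In AE, leaving out 1 library moved the members' median from -0.56 to 0.09, Ccna2 from -0.92 to 0.15, Kif11 from -0.74 to 0.18, Tpx2 from -0.42 to 0.19, Birc5 from -0.61 to 0.22, Anln from -0.51 to 0.02 and Top2a from -0.24 to 0.53. Top2a (0.09) was 0.00 with the block and the correction. For the Wnt3a difference, Ube2c (-0.22) was 0.05 with the correction, 0.04 with block and correction, and -0.54 to 0.14 with 1 library left out. Birc5 (0.16) ranged from -0.19 to 0.63 and Foxm1 (0.07) from -0.42 to 0.41, and Foxm1 was -0.02 with total-count scaling and -0.01 with limma-trend. Mybl2 (-0.46) was 0.06 with the correction and 0.07 with block and correction. For AE against WT under Wnt3a, the median ranged from -0.36 to 0.10 and Foxm1 from -0.77 to 0.08 with 1 library left out, and Tpx2 (0.29) was -0.05 with the correction, with or without the block. Counts were lowest for Spc24 under TGFb in WT, and depth limits its value most.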
